A study of Mus musculus with 8 samples.

Results

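Shared distal regions are sites where all 4 phospho-CREB1 peak lists of mouse muscle had a peak and where no summit lay close to an end of a protein-coding gene. Peaks of the 4 lists were merged where they overlapped by 1 bp or more. A region was kept when it held a peak from every list and when every summit, whichever its list, was more than 1000 bp from the ends of protein-coding gene spans. This gave 667 regions, which is 22.4% of the 2978 regions with a peak in all 4 lists and 3.79% of all 17607 merged regions. The remaining 2311 regions with a peak in all 4 lists had a summit near a gene end and are called shared gene-end regions. The members were chosen by presence of a peak and by summit position, so presence in every library is a description and not a result. Without the shortest list, C26 replicate 2, the same rule would give 1417 regions.

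Phosphorylated CREB1 was measured by chromatin immunoprecipitation and sequencing (ChIP-seq) in male Balb/c mice, with 2 phospho-CREB1 libraries of control muscle (CTRL) and 2 of muscle from mice carrying C26 tumours, each with its own input library. C26 is a mouse colon adenocarcinoma line that was injected under the skin of the right flank at 2 months of age and is used as a model of cancer cachexia. The treatment protocol gives tumour-bearing mice either rolipram (3 mg/kg), an inhibitor of phosphodiesterase 4, or its vehicle from day 4 on, and it leaves unsaid which treatment the mice behind the C26 libraries had. The labels name the gastrocnemius while the extraction protocol names the quadriceps, and it gives the antibody as CREB or phospho-CREB1, so the tissue is called muscle here and the mark phospho-CREB1 after the sample titles. Nothing in the labels says whether the 2 libraries of a group came from separate mice. The lists held 10835 and 14975 peaks (CTRL replicates 1 and 2) and 7482 and 4051 peaks (C26 replicates 1 and 2), read depth is unknown, and a place without a peak is a place that did not pass the authors' threshold. All positions are on GRCm38.

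CREB1 is a transcription factor of the leucine zipper family that binds the cAMP response element, a palindrome found mostly in promoters. Protein kinase A, activated by cAMP, phosphorylates CREB1, and the phosphorylated form recruits the coactivators CBP and p300. In muscle, cAMP signalling through CREB1 is known for induction of the Nr4a receptors, Sik1 and the coactivator PGC-1alpha, and for support of survival and growth of fibers. Many genes have more than 1 promoter, so a site far from the outer ends of a gene can still be the start of one of its transcripts.

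The members were not all remote from promoters. RefSeq transcript starts, which were available for all chromosomes except chromosome 18, lay within 1000 bp of the median summit of 252 of 653 members (38.6%, 95% Wilson interval 34.9 to 42.4). Of these, 198 were at a start of a protein-coding gene and 54 at a start of a long noncoding RNA. All 198 protein-coding start members lay inside the span of the gene that owns the start, so each sat at a start internal to that span. Whether such a start is the main one of its gene was not looked into. Their median distance to the nearest gene end was 3136 bp, and 134 of them lay within 5000 bp of one. The median distance from summit to start was 86.5 bp, with 133 of the 252 within 100 bp. The label "away from gene ends" therefore holds for the outer ends of genes and not for transcript starts. The other 401 members off chromosome 18 had no listed start within 1000 bp, with 209 inside a gene and 192 between genes.

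**Figure D1:**
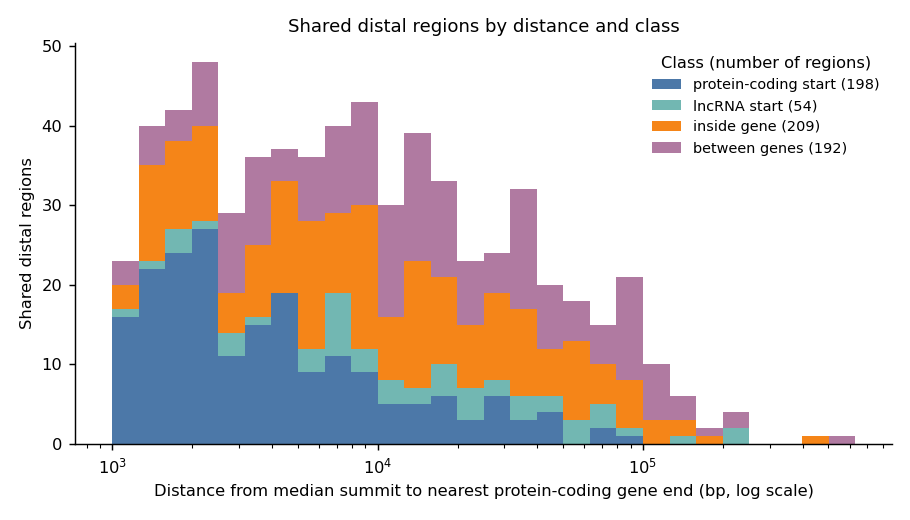
Number of shared distal regions (vertical axis) by distance from the median summit to the nearest end of a protein-coding gene (horizontal axis, bp, log scale) and stacked by class, for the 653 regions covered by the start table. Regions at internal protein-coding starts (198) lie mostly within 5000 bp of a gene end, and regions inside genes (209) and between genes (192) reach much farther.

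The sequences at these starts were searched for the element that CREB1 is known to bind, and examples that hold all or part of it are shown first. The letters come from RefSeq windows of the build GRCm38.p6 that run from 250 bases before a start to 50 bases after it. The stretches of 250 bases before the start of 3 of the strongest members follow, each read 5′ to 3′ on the strand of the gene, with every TGACG or CGTCA in capitals. The lncRNA 1810044D09Rik holds the member that was strongest by its lowest percentile over the libraries, Ap2b1 encodes a subunit of the clathrin adaptor AP-2, and Eprs encodes glutamyl-prolyl-tRNA synthetase.
1810044D09Rik (chr6:91440737-91440986, plus strand): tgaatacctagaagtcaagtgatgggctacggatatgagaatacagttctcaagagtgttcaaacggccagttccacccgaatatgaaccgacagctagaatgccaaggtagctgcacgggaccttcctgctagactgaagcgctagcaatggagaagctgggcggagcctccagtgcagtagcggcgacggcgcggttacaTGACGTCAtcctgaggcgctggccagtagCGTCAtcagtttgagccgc
Ap2b1 (chr11:83302447-83302696, plus strand): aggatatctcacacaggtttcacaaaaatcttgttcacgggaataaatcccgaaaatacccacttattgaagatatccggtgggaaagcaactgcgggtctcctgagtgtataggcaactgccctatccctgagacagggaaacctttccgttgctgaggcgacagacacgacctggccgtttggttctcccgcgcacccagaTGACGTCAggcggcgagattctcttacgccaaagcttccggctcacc
Eprs (chr1:185362794-185363043, plus strand): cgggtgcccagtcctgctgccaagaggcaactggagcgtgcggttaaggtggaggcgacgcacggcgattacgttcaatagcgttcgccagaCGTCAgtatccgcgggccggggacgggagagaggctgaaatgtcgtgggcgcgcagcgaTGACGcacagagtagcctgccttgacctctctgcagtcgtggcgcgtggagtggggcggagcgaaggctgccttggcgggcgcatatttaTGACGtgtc
In the windows of 1810044D09Rik and Ap2b1 the capitals include a full element TGACGTCA, while Eprs has 3 copies of the 5-base core and no full element.

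The full element TGACGTCA, which reads the same on both strands, was in the start window of 24 of the 252 start members (9.52%, 95% Wilson interval 6.48 to 13.8), against 1.79% of all 32851 start windows of this length. A short form of it, the core TGACG on either strand (TGACG or CGTCA, which also occurs inside every full element), was in 138 of the 252 windows (54.8%, 48.6 to 60.8), against 20.8% of all windows. Member windows were richer in G and C than all windows (median 62.0% against 52.7%), and the shares also differed at like base composition. Among windows with 60 to 70% G and C, 55.5% of 110 member windows and 32.5% of 6542 windows in all held the core. Below 50% G and C the numbers were 38.9% of 18 and 11.5% of 12913. A match is a run of letters and not a measured binding site.

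Full elements of the strongest members, and of genes with a role in metabolism or cAMP signalling, are printed with 10 bases on each side, read on the strand of the gene and with the element in capitals. Tmem39a encodes a membrane protein of the endoplasmic reticulum, Aptx the DNA repair protein aprataxin, Taf11 a TBP-associated factor of TFIID and Errfi1 an inhibitor of the EGF receptor. Ldha encodes lactate dehydrogenase A, and Prkar1a the regulatory subunit RI alpha of protein kinase A. Gm14321 is a lncRNA, and the member at its start lies 87022 bp from Cebpb, a bZIP transcription factor gene.
1810044D09Rik (chr6:91440929-91440956, plus strand): cgcggttacaTGACGTCAtcctgaggcg
Tmem39a (chr16:38562809-38562836, plus strand): gacgcagagcTGACGTCAtcgctgtgcg
Ap2b1 (chr11:83302640-83302667, plus strand): cgcacccagaTGACGTCAggcggcgaga
Aptx (chr4:40703194-40703221, minus strand): cagccgtttgTGACGTCAtctctcagca
Taf11 (chr17:27907755-27907782, minus strand): tccgtgggcgTGACGTCAtcgcggcgcg
Ankrd13c (chr3:157946942-157946969, plus strand): cgcagctgagTGACGTCAcgtccgatat
Gm14321 (chr2:167777464-167777491, plus strand): gacgcagctgTGACGTCAgagccggcca
Errfi1 (chr4:150855009-150855036, plus strand): ctgcgggcgtTGACGTCAcgttgtcgct
Ldha (chr7:46845782-46845809, plus strand): gctcccactcTGACGTCAgcgcggagct
Prkar1a (chr11:109650890-109650917, plus strand): cgaggcgcatTGACGTCAgcagccgaac
In the strongest of these the element lay on the summit. It was centred 7.5 bp from the median summit at 1810044D09Rik, 0.5 bp at Tmem39a, 6.5 bp at Ap2b1, 8.5 bp at Aptx and 2.5 bp at Taf11.

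Among genes of the lists described below, several start members held the core without the full element. The copy nearest to the summit is printed with 10 bases on each side and the core in capitals. Gnas encodes the stimulatory G protein alpha subunit, Nr4a1 an orphan nuclear receptor induced by cAMP, Hdac4 a class IIa histone deacetylase that represses MEF2 factors, Srf the serum response factor, Polg the catalytic subunit of the mitochondrial DNA polymerase and Nfkb2 the NF-kappaB protein p100.
Gnas (chr2:174327701-174327725, plus strand): gaggttggggCGTCAtcaggctggt
Nr4a1 (chr15:101266623-101266647, plus strand): accccgcgtgCGTCAcgcgcgcaga
Hdac4 (chr1:92180378-92180402, minus strand): cggggggaggTGACGcaaagccgtt
Srf (chr17:46556349-46556373, minus strand): aatcgcggtcTGACGcggggatgac
Polg (chr7:79466349-79466373, minus strand): ttcaggctcgCGTCAgactggtcta
Nfkb2 (chr19:46304669-46304693, plus strand): gcatggggagTGACGcacgggatcg
The cores of Hdac4, Srf and Nfkb2 lay 9, 11 and 6 bp from the median summit, that of Polg 23 bp and that of Nr4a1 41 bp, while that of Gnas lay 281 bp away. The start member of Nfil3 also had its nearest core far from the median summit, at 765 bp. At Per1 the summits of the libraries were spread, and the core lay 276 bp from the median summit. It was 11 and 1228 bp from the summits of CTRL replicates 1 and 2, and 13 and 563 bp from those of C26 replicates 1 and 2. The start windows of Arntl, Gabpb1, Sox6, Tef and Tpm3, which also belong to these lists, held no core.

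Elements sat close to the summits in every library. The full element lay a median of 12 bp from the median summit, and 23 of 24 lay within 50 bp. Measured to each library's own summit, the medians were 17 and 10.5 bp in the CTRL libraries and 15 and 15.5 bp in the C26 libraries. For the core the median was 20 bp, with 72.5% within 50 bp. Other promoter motifs, each measured in the start members whose windows held it, had larger median distances. These sets of members differ, and so may the number of summits outside the windows, so the distances are not matched. The nearest GC box (GGGCGG or CCGCCC) was at a median of 65.5 bp (168 members) and the CCAAT box (CCAAT or ATTGG) at 54 bp (104 members). The ETS motif (CCGGAAG or CTTCCGG) was at 69 bp (49 members) and the E-box CACGTG at 95.5 bp (31 members). The exception among the full elements was the lncRNA Gm4262, where the element lay 183.5 bp from the median summit.

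**Figure D2:**
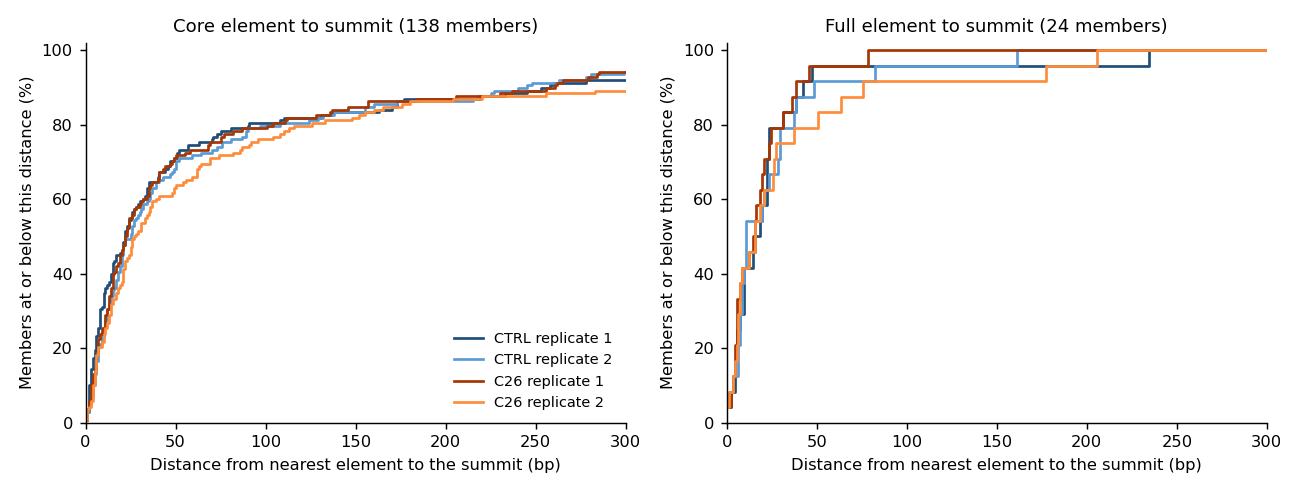
Cumulative share of start members (vertical axis, percent) by distance from the nearest element to the summit of each library (horizontal axis, bp), for the 5-base core (left, 138 members) and the full element (right, 24 members). The curve of C26 replicate 2 runs below the others over part of the range, and all 4 libraries rise steeply near 0, with medians of 22 to 27.5 bp for the core and 10.5 to 17 bp for the full element.

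Members with an element in the start window had stronger peaks. Strength is a percentile, 100 at the top, of the −log10 q of a peak among the peaks of its library. Values here and below are given first for the CTRL libraries and then for the C26 libraries, replicate 1 before replicate 2. The 24 members with a full element had median percentiles of 93.5, 95.2, 90.6 and 76.3. The 114 members with the core only had 87.9, 89.8, 81.6 and 63.5, and the 114 start members with neither had 76.6, 83.3, 63.6 and 48.8. The order was the same in every library. The windows do not reach every summit. In 190 of the 252 start members the median summit lay within 250 bp of the start. Windows of these held 23 of the 24 full elements and 120 of the 138 cores. Members with a summit outside the window had no search at the summit, so those with neither can have an element there. The part of this in the strengths was not tested. When the 252 start members were divided into 4 groups by their lowest percentile over the libraries, the core was in 33.3% of the weakest group and in 49.2%, 65.6% and 71.0% of the next ones.

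The full element was more frequent at starts of members than at other distal starts. Distal regions that had a peak in every library except C26 replicate 2 (745 regions) were at a start in 38.9% of cases (35.4 to 42.5), a share within the members' interval. The full element was in 2.15% of their 279 start windows (0.989 to 4.61), and the core in 38.4% (32.8 to 44.2). Distal regions that both CTRL libraries had and both C26 libraries lacked were at a start in 22.4% of cases, and 1.10% of those windows held the full element (0.374 to 3.18). Distal regions of 1 library were at a start in 9.51%, with a full element in 1.45%. Shared gene-end regions had the full element in 11.2% (9.88 to 12.7) of their start windows and the core in 61.9%, so the interval of the members' full-element share (6.48 to 13.8) includes that of the gene-end regions. Since stronger peaks are found in more lists, strength differed between these sets too, and its part in the shares was not tested. For regions at a start, the median distance from summit to the nearest start was 83 bp in members and 177 bp in distal regions of 1 library. It was 81 bp in those missing only from C26 replicate 2, 88 bp in those of the CTRL libraries alone and 68 bp in gene-end regions. The part of this distance was not tested either.

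**Figure D3:**
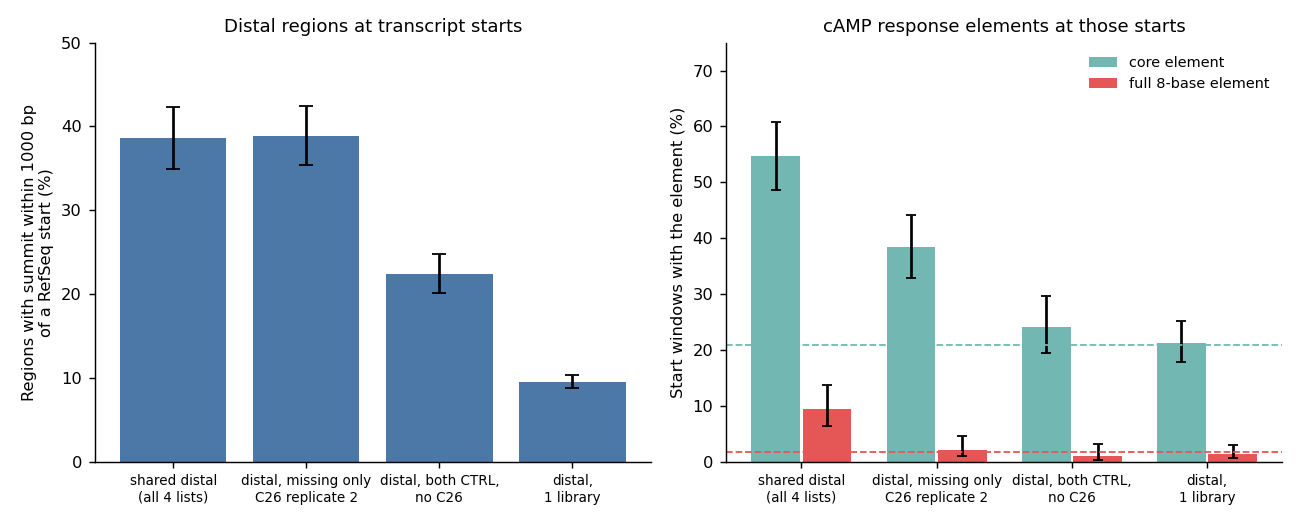
Left, percent of distal regions with a median summit within 1000 bp of a RefSeq start, by the lists they were found in. Right, percent of those start windows with the 5-base core or the full element. Bars are shares with 95% Wilson intervals, and dashed lines give the share in all start windows (20.8% core, 1.79% full); the full element was in 9.52% of member windows and in 1.10% to 2.15% in the other sets.

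By position, 425 members had their median summit inside a protein-coding gene (63.7%) and 242 between genes. The same share was 68.2% in distal regions missing only from C26 replicate 2 and 64.3% in distal regions of 1 library. Within 1000 bp of an end of a gene that is not protein-coding lay 114 members (17.1%, 14.4 to 20.1). This share was 15.8% (14.3 to 17.3) of shared gene-end regions, 15.3% (12.9 to 18.1) of distal regions missing only from C26 replicate 2, 13.4% (11.6 to 15.4) of distal regions of the CTRL libraries alone and 7.78% (7.10 to 8.52) of distal regions of 1 library. Of these, 95 were near a lncRNA gene and 25 near a gene of a small RNA. Merged regions were 825 bp wide in the median (368 to 3499 bp). Summits of the 4 libraries lay within 100 bp of each other in 343 members, with a median spread of 99 bp against 74 bp in gene-end regions.

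By the lowest of its 4 percentiles, the strongest member lay at the start of the lncRNA 1810044D09Rik, with an end of the lncRNA 4930471M09Rik also within 1000 bp (chr6:91440370-91441719). It had 138-fold, 170-fold, 88.6-fold and 74.4-fold enrichment over input in the 4 lists. These are the authors' values, each scaled to its own list, so they are given side by side and not compared between lists. The nearest protein-coding gene, Chchd4, a mitochondrial import factor, ended 23326 bp away. In all 4 lists this region was above the 99th percentile.

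Inside genes, the strongest member lay at an internal start of Esyt2, a tether between the endoplasmic reticulum and the plasma membrane (chr12:116280441-116281907), with 117-, 204-, 61.7- and 53.5-fold enrichment. Eprs (chr1:185362478-185364083) had 97.4-, 143-, 62.3- and 39.7-fold. Supv3l1, a mitochondrial RNA helicase (chr10:62449207-62450485), had 78.7-, 119-, 50.8- and 36.4-fold. The others among the 10 strongest inside genes were Btbd9, Tmem39a, Thumpd1, Ap2b1, Aptx, Mrpl4 and Hint3, of which Btbd9, Thumpd1 and Mrpl4 had no listed start within 1000 bp. Mrpl4 encodes a protein of the mitochondrial ribosome, and Thumpd1 a cofactor of tRNA acetylation. Gpam, the mitochondrial acyltransferase that starts glycerolipid synthesis, had the highest enrichment of any member in CTRL replicate 2 (118-, 223-, 59.4- and 25.9-fold, chr19:55098504-55099955).

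Outside genes, the region after 1810044D09Rik in strength was one 13060 bp from Prrc2b (chr2:32137512-32138335), with 71.6-, 88.8-, 41.4- and 45.6-fold enrichment. A region 3167 bp from Slc25a1, the mitochondrial citrate carrier (chr16:17921459-17922526), had 76.4-, 64.8-, 58.1- and 29.3-fold. The 10 strongest outside genes also included the lncRNA starts of Trmt61b (annotated as noncoding in this build), Gm36445 and Rab10os, regions near C87436 and Fbxw2, and regions near Nr4a1 and Fos, both known as early response genes of cAMP.

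Small RNA genes were near 25 members. Of these, 11 were near tRNA genes (18 genes), 4 near snRNA genes, 4 near snoRNA genes and 3 near miRNA genes. A region within 1000 bp of the tRNA genes n-TIaat4, n-TSgct3, n-TTagt7 and n-TWcca6 (chr11:69062434-69063673) had 15.8-, 16.9-, 6.60- and 10.2-fold enrichment. The region at Rn7s2, a 7SL RNA gene (chr12:69361079-69361887), had 22.3-, 48.6-, 28.7- and 15.9-fold. At an internal start of the ribosomal protein gene Rps2, close to the snoRNA genes Snora64 and Snora78 (chr17:24719636-24720764), enrichment was 35.3-, 69.5-, 22.5- and 18.7-fold.

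One member lay at the miRNA pair Mir212 and Mir132 (chr11:75172990-75173858), which are known as CREB1 targets in neurons. Its median summit was 70 bp from the Mir212 hairpin and 364 bp from the Mir132 hairpin. Enrichment was 9.47-, 16.9-, 7.99- and 5.28-fold, at percentiles 70.3, 85.8, 75.2 and 20.7. The mature sequences follow with the seed, bases 2 to 8, in capitals.
mmu-miR-212-3p (chr11:75173443-75173464, plus strand): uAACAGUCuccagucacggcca
mmu-miR-132-3p (chr11:75173723-75173744, plus strand): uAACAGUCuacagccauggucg
mmu-miR-212-5p (chr11:75173403-75173425, plus strand): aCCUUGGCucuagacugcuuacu
mmu-miR-132-5p (chr11:75173686-75173707, plus strand): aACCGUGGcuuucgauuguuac
The 3p forms of both miRNAs share the seed AACAGUC, and the 5p forms do not share one. Mir5620 and Mir7655 were each near 1 further member.

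Known CREB1 target genes had members away from their ends at 13 of 40 genes. A gene was counted when a member lay inside its span or, for members between genes, when it was the nearest gene. By this rule 613 of 21887 protein-coding genes (2.80%) had a member, and of the 40 known CREB1 targets 13 did (Atf3, Btg2, Crem, Dusp10, Fos, Fosb, Irs2, Jun, Nfil3, Nr4a1, Nr4a2, Nr4a3 and Per1). Genes with a member had a median span of 32133 bp, against 17169 bp for all genes and 11052 bp for the known targets. The count also takes in members between genes, which do not depend on the span. The part of gene length, or of the space between genes, was not tested. The 18 regions of these 13 genes had a median lowest percentile of 63.2, against 42.0 over all members. The list holds textbook targets, and the counts describe it without a test.

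The Nr4a genes, orphan receptors induced by exercise and cAMP, all had members. Nr4a1 had a region 7521 bp outside the gene (chr15:101246002-101246897) with 29.8-, 43.5-, 21.6- and 16.9-fold enrichment. It also had a region at an internal start (chr15:101266163-101267185) with 20.9-, 24.5-, 13.7- and 8.05-fold and a weaker one inside (chr15:101260075-101260965) with 9.18-, 11.8-, 2.56- and 4.99-fold. Nr4a3 had a region 1607 bp from its span (chr4:48042659-48043755) with 20.9-, 22.6-, 13.4- and 7.06-fold. The Nr4a2 region (chr2:57116206-57117129) had 12.2-, 14.5-, 5.02- and 10.0-fold. Of the Nr4a1 regions, the outside one was the strongest in every list and the one without a listed start inside the gene was the weakest.

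Members also lay beside genes of AP-1 transcription factors. Fos had regions 18549 bp (chr12:85455019-85455945; 24.7-, 22.5-, 10.6- and 16.9-fold) and 37606 bp (chr12:85435970-85436704; 14.2-, 16.1-, 11.5- and 13.4-fold) from the gene. Fosb had 1 region inside (chr7:19308215-19309364; 18.5-, 36.5-, 15.0- and 11.6-fold) and 1 outside, 10009 bp away (chr7:19319703-19320452; 20.0-, 29.7-, 7.36- and 14.9-fold). The Jun region lay 109163 bp from the gene (chr4:95160970-95161756; 20.9-, 16.3-, 5.31- and 7.22-fold). The nearest gene to a region is a matter of position and does not show that the gene is regulated from there. Btg2, an antiproliferative gene, had a region 14037 bp away (chr1:134092753-134093765; 29.6-, 33.6-, 18.1- and 13.7-fold).

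**Figure D4:**
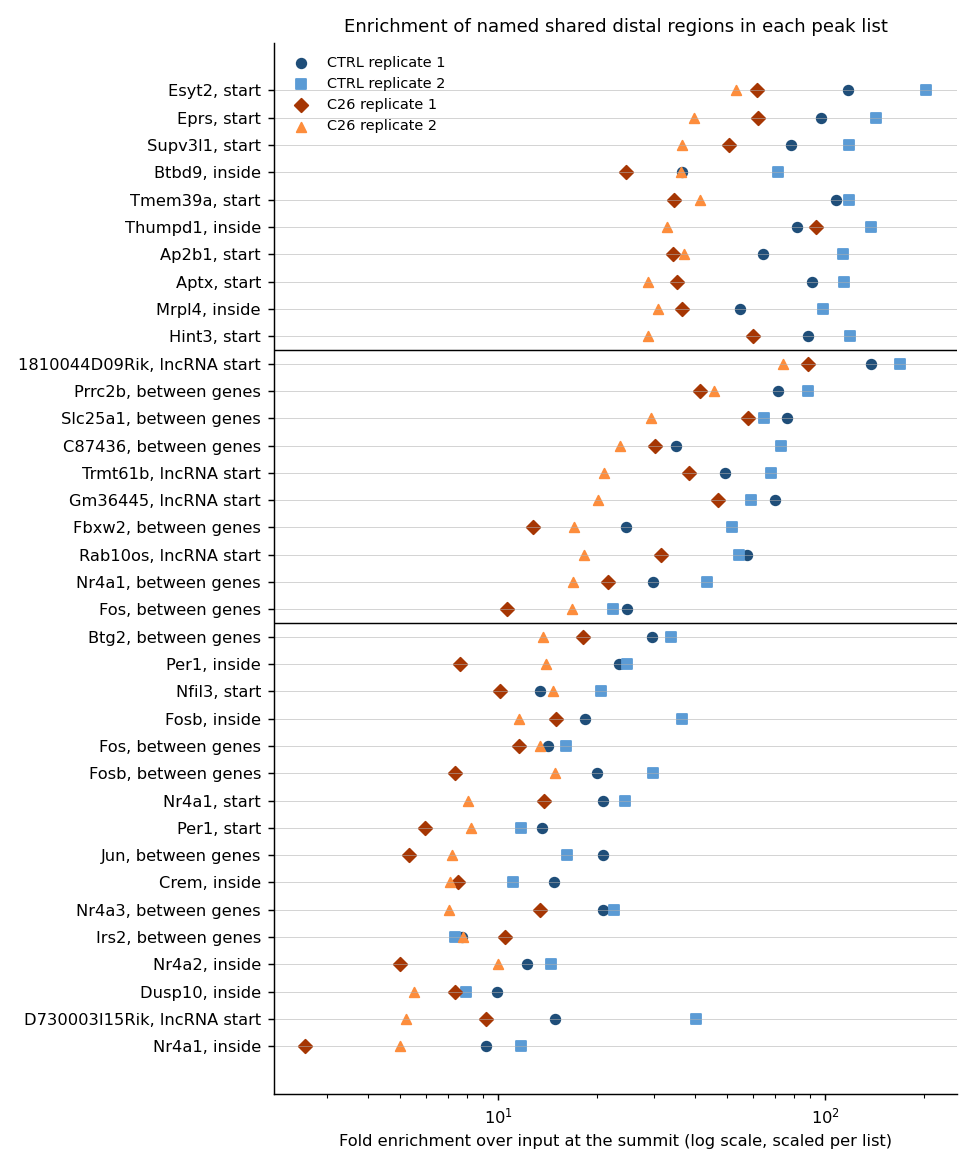
Fold enrichment over input (horizontal axis, log scale, the authors' value per list) of named shared distal regions, 1 row per region, with 1 symbol per library. The upper block holds the 10 strongest regions inside genes, the middle block the 10 strongest outside genes and the lower block the other regions of known CREB1 target genes; each list has its own scale, so symbols of different libraries are not compared.

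Clock genes had members at 8 of 22 genes (Arntl, Bhlhe40, Dbp, Nfil3, Nr1d1, Per1, Rora and Tef), against 2.80% of all protein-coding genes. Their median span was 34346.5 bp, against 17169 bp for all genes, and the part of length was not tested. Per1, a period gene induced by cAMP, had a region inside (chr11:69096754-69097831) with 23.5-, 24.7-, 7.65- and 14.0-fold enrichment and one at an internal start (chr11:69098341-69100329) with 13.6-, 11.7-, 5.98- and 8.26-fold. Nr1d1, which encodes the repressor REV-ERB alpha, had a region inside (chr11:98772681-98774549) with 18.8-, 19.1-, 5.98- and 7.48-fold. Tef, an output regulator of the clock, had 3 members, the strongest 7589 bp outside the gene (chr15:81834059-81834778) with 20.6-, 24.8-, 9.84- and 10.5-fold.

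In the cAMP pathway, members were at 5 of 40 genes (Gnas, Pde10a, Pde4b, Pde4d and Prkar1a), or 12.5%, against 2.80% of all protein-coding genes. Gnas had the strongest region, at an internal start (chr2:174327031-174327912), with 43.1-, 77.8-, 24.0- and 21.4-fold enrichment. Pde4d, which encodes a cAMP phosphodiesterase of the family that rolipram inhibits, was the only gene with more than 2 members inside its span, with 4. The one nearest to a gene end was at chr13:109951287-109952044 (12.5-, 13.6-, 11.1- and 8.55-fold), and the deepest lay 469620 bp from a gene end (chr13:109485982-109486595; 5.68-, 4.01-, 5.51- and 7.13-fold). Genes of this list are long (median span 106166 bp), and the part of length in the count was not tested. Crem, listed with the CREB family and with the targets, had a region inside with 14.8-, 11.1-, 7.54- and 7.13-fold enrichment, and was the only 1 of 18 genes of the CREB family and coactivators with a member.

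Muscle genes also carried members. Of 32 muscle regulators and MEF2 partners 8 did (Hdac4, Mef2d, Myod1, Nfatc1, Sox6, Srf, Tead1 and Tead4), and of 50 sarcomere genes 8 did (Cmya5, Des, Flnc, Myh3, Myom2, Tpm2, Tpm3 and Xirp1). Of 29 genes of calcium handling and excitation-contraction coupling 1 did (Cacng1), near the 2.80% of all protein-coding genes. The muscle regulators are long (median span 62256.5 bp, against 17169 bp for all genes), and the part of length was not tested. A region 3506 bp from Mef2d, a transcription factor of muscle differentiation (chr3:88138076-88139430), had 28.2-, 29.7-, 8.90- and 12.4-fold enrichment. Hdac4 had a region at an internal start (chr1:92179505-92181114) with 19.5-, 27.3-, 10.6- and 8.38-fold. Tpm2, a tropomyosin gene, had the strongest region of the sarcomere list (chr4:43519703-43520570; 21.3-, 49.6-, 13.5- and 15.7-fold). The region 23032 bp from Myod1, the myogenic determination factor, was weak in every list (4.36-, 6.73-, 5.12- and 5.44-fold). None of 16 endothelial, 16 fibroblast and fibro-adipogenic, 20 leukocyte or 12 adipocyte and Schwann cell markers had a member. With 2.80% of all protein-coding genes having one, a count of 0 in lists of this size is near the background.

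Of 40 genes of atrophy, autophagy and FOXO signalling, 9 had a member (Cebpb, Fbxo31, Foxo1, Foxo3, Klf15, Map1lc3b, Mt2, Smad3 and Ulk1). A region 4918 bp from Map1lc3b, the autophagosome marker LC3B (chr8:121585091-121585846), had 13.7-, 21.5-, 6.30- and 8.54-fold enrichment. The Foxo1 region lay 251010 bp from the gene (chr3:52600214-52601509; 8.71-, 10.3-, 3.39- and 6.51-fold). Of the mitochondrial lists, members were at 3 of 36 regulators of mitochondrial biogenesis (Gabpb1, Polg and Prkag2) and at 1 of 30 genes of mitochondrial dynamics and quality control (Bnip3). Glycolysis and fuel genes had 3 of 42 (Ldha, Pfkfb2 and Pfkfb4), and insulin and AKT signalling 3 of 26 (Gsk3a, Igf1r and Irs2). Inflammation had 3 of 25 (Nfkb2, Nfkbiz and Socs3). Of all protein-coding genes 2.80% had a member, and 1 of 30 is near that share. Median spans of the lists in this paragraph ran from 22544 bp (glycolysis and fuel) to 80220 bp (insulin and AKT). That of all protein-coding genes was 17169 bp, and the part of length in the counts was not tested.

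Peaks of members were weaker than those of shared gene-end regions in every library, and members without a start were the weakest. Median percentiles of the members were 73.4, 79.0, 63.4 and 53.1, against 86.0, 89.99, 79.9 and 64.5 for gene-end regions. The mean difference over the libraries was −12.8 percentile points (SD 2.50, n = 4 libraries), lower in 4 of 4 and short of 0.05 (exact sign-flip permutation test, two-sided, p = 0.125, the smallest that 4 libraries can give). With every list trimmed to its 4051 strongest peaks the difference was −5.80 points. Among the members, those at a start had medians of 84.1, 88.1, 76.7 and 57.6 and the others 66.2, 70.1, 54.1 and 51.1. The mean difference was 16.3 points (SD 6.85, n = 4 libraries), higher in 4 of 4 (same exact permutation test, p = 0.125). When members were divided into 4 groups by their lowest percentile, 24.7% of the weakest group and 56.4% of the strongest were at a start.

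CTRL and C26 libraries were compared by ranks over the 2978 regions with a peak in all 4 lists, since enrichment is scaled per list. A region was ranked higher when both its C26 ranks were above both its CTRL ranks, and lower in the reverse case. With 2 libraries against 2, no exact permutation test can go below p = 0.333, so these are counts. Of all 2978 regions, 17.5% were ranked higher and 17.5% lower. Of the members, 163 were ranked higher (24.4%, 21.3 to 27.8) and 93 lower (13.9%, 11.5 to 16.8).

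The members had to pass the authors' q threshold in all 4 lists, and the same −log10 q was then ranked, so these shares describe the members and support nothing further. Of the 401 members without a listed start, 118 were ranked higher (29.4%, 25.2 to 34.1) and 47 lower (11.7%, 8.93 to 15.2). Of the 252 at a start, 40 were ranked higher (15.9%, 11.9 to 20.9) and 44 lower (17.5%, 13.3 to 22.6), which is near the share over all regions. Of the 2311 gene-end regions, 359 (15.5%) were ranked higher and 428 (18.5%) lower. Ranked by fold enrichment, with 17.7% higher and 17.4% lower over all regions, members without a start had 30.9% higher and 10.5% lower. In the 2 lower of 4 groups by mean rank over all regions, 30.7% of 218 and 41.1% of 90 such members were ranked higher. In the 2 upper groups the numbers were 15.0% of 60 and 15.2% of 33.

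The C26 libraries differed in these ranks. Median ranks of members without a start were 21.7, 17.0, 24.1 and 38.8, so CTRL replicates and C26 replicate 1 were close together and C26 replicate 2 stood above them. Such members were above both CTRL ranks in 62.6% of cases in C26 replicate 2 and in 39.9% in C26 replicate 1, against 40.3% and 34.0% over all shared regions. Over the members, ranks of C26 replicate 2 also followed those of the other libraries less closely (Spearman rho 0.546 to 0.617 over 667 regions) than these followed each other (0.760 to 0.842). The part of this library, and of its shorter list, in these counts was not tested. With 1 library left out, fewer ranks must be in order and more regions qualify, so the shares are read only against all shared regions of the same setting. Without C26 replicate 2 there were 840 members without a start among 5902 shared regions, and without C26 replicate 1 there were 535 among 3288. Members without a start ranked higher numbered 224 without CTRL replicate 1 (48.7%, against 30.3% of all shared regions), 184 without CTRL replicate 2 (41.6% against 30.1%), 325 without C26 replicate 1 (60.7% against 39.8%) and 339 without C26 replicate 2 (40.4% against 34.6%). With every list trimmed to its 4051 strongest peaks, 30 of 144 such members were ranked higher (20.8%, against 17.1% over all shared regions). In that setting 22 were ranked lower (15.3%, against 16.7%), which is near the share over all shared regions.

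**Figure D5:**
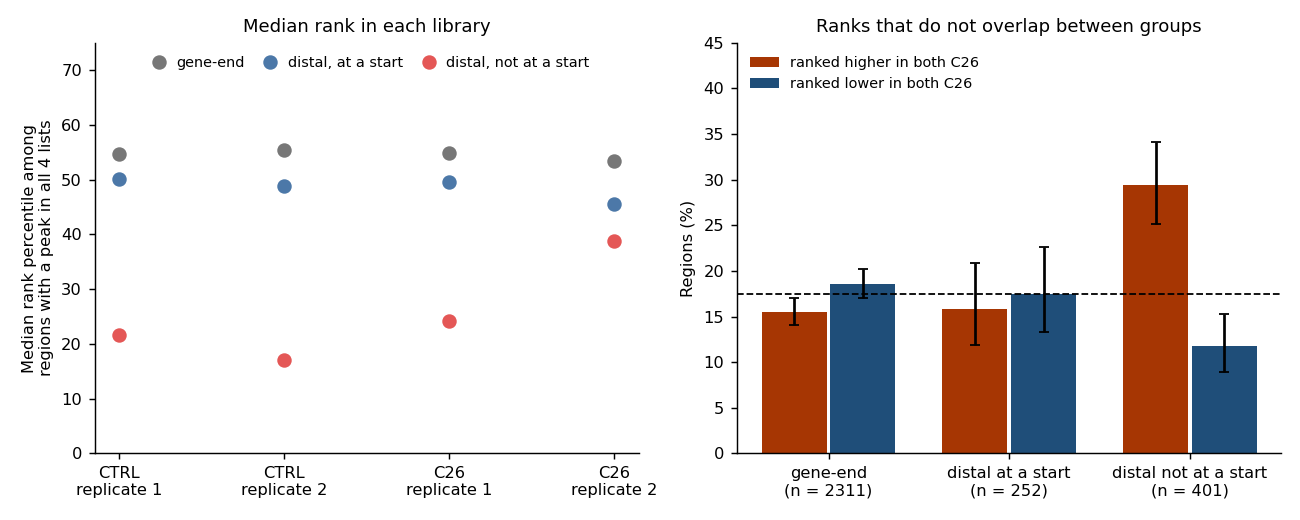
Left, median rank percentile by −log10 q in each library, over the 2978 regions with a peak in all 4 lists, for gene-end regions, members at a start and members not at a start. Right, percent of each group ranked higher or lower in both C26 libraries, with 95% Wilson intervals and the 17.5% found over all regions as a dashed line; members not at a start reach 29.4% higher and 11.7% lower.

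The members with the largest difference in mean rank among those ranked higher included regions of muscle and metallothionein genes. A region inside Myl4, a myosin light chain gene (chr11:104565031-104565601), had rank percentiles of 3.29 and 8.56 in CTRL and 57.8 and 77.6 in C26 libraries, with 5.46-, 8.77-, 9.94- and 12.1-fold enrichment. The region at the lncRNA Gm39227, 1117 bp from the metallothionein gene Mt2 (chr8:94171107-94172629), had ranks of 2.72, 4.42, 21.4 and 88.5 and 4.68-, 6.50-, 4.74- and 17.4-fold enrichment, so C26 replicate 2 stood far above C26 replicate 1. Smox, which encodes spermine oxidase (chr2:131509613-131510206), had ranks of 13.4, 5.46, 57.2 and 68.8. Regions near Dnajb12, an HSP40 co-chaperone gene, and inside Farp1 completed the 5. In Myl4 and Smox both C26 libraries were above the middle of the shared regions while both CTRL libraries were far below it.

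In the other direction, a region inside Kdm6b, a histone H3K27 demethylase gene (chr11:69417401-69419641), had ranks of 60.8 and 53.3 in CTRL and 20.4 and 24.9 in C26 libraries, with 17.3-, 20.8-, 5.21- and 6.09-fold enrichment. The start of the lncRNA D730003I15Rik, 41088 bp from the stress gene Atf3 (chr1:191224040-191224976), had 14.9-, 40.2-, 9.16- and 5.20-fold enrichment and ranks of 54.2, 81.6, 53.4 and 9.54. In CTRL replicate 1 and C26 replicate 1 its ranks were within 1 point of each other. The starts of Gm38882 and Dnajc25 and a region inside Xpo4 completed the 5, and at Dnajc25 and Xpo4 C26 replicate 2 had ranks of 0.453 with 3.90-fold enrichment.

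Among list genes, 4 of the 18 regions of known CREB1 targets were ranked higher and 3 lower, near the shares over all regions. The higher ones were at Fos (37606 bp away), Nfil3, Nr4a1 (outside the gene) and Irs2, and the lower ones at Atf3 (D730003I15Rik), Jun and Nr4a1 (inside the gene). The Irs2 region, 89679 bp from this insulin receptor substrate gene (chr8:11098154-11098964), had ranks of 13.9 and 4.63 in CTRL and 52.1 and 48.1 in C26 libraries. In the cAMP list 4 of 8 regions were ranked higher (3 in Pde4d and the one near Pde10a) and 0 lower, where 17.5% each way of all shared regions were and 24.4% of the members were ranked higher. So 3 of the 4 came from 1 gene. None of the 4 had a listed start, and of all members without one 29.4% were ranked higher. The region near Bnip3, a mitophagy receptor gene (chr7:138919028-138920026), had ranks of 13.0 and 5.61 against 47.4 and 55.6. At Nr4a1 the outside region was called on ranks of 86.1, 85.6, 87.0 and 87.9, a difference of under 3 points.

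Position extremes and the limit of the rule complete the description. The farthest member lay 511775 bp from a gene end, near Tbl1xr1, with 4.68-, 7.90-, 3.18- and 5.60-fold enrichment. The widest spanned 3499 bp at the start of Mir22hg, the host transcript of miR-22 (chr11:75459876-75463374; 10.6-, 27.1-, 7.87- and 10.1-fold). Just inside the 1000 bp limit were regions in Adamts1, Wdcp and Srsf1, with a closest summit 1008, 1009 and 1012 bp from a gene end and 6.26-, 7.33- and 11.1-fold enrichment in CTRL replicate 1. Just outside were regions at Wars2, Gm34296 and Fmc1, at 998, 997 and 988 bp, with 11.2-, 15.6- and 15.0-fold. The Srsf1 member sat 178 bp from an internal start of that splicing factor gene.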

How the data were processed

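Phospho-CREB1 peak lists of 2 CTRL and 2 C26 libraries were used. Per the submitters' processing notes, the authors used MACS2 2.1.4, Bowtie2 2.3.5.1, SAMtools 1.6, Picard and FastQC 0.11.2 with the build mm10 (GRCm38). Peaks were called per library against an input of the same group at q 0.05, per the labels, and a filter named there by an abbreviation alone was not looked into. The deposited lists give, for each peak, the fold enrichment over input (a ratio), the −log10 p and q-values and a score. Fold and −log10 q were used only within a list, or as ranks over one set of regions.

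Regions, genes (21887 protein-coding and 28056 other genes of GRCm38.p6) and 32851 RefSeq starts were joined with Python 3.11.15, pandas 2.3.3, numpy 2.4.6 and SciPy 1.17.1. The start table was not used for chromosome 18. The median summit is the median over the libraries of the summit of the strongest peak. A search of 101 and 201 bp windows at summits was planned and not run, because no genome sequence was used here, and start windows were searched in its place. All 1683 pairs of overlapping windows on opposite strands had matching letters. Wilson intervals (95%) cover counting error only. The merging and ranking steps were tested on simulated data. The members, gene lists and tests were chosen with earlier results of these data known. Named regions are the 10 strongest inside and outside genes by their lowest percentile, those of list genes, the 5 with the largest rank difference each way, the 5 farthest and widest, and those next to the limit; genes with printed sequences and small RNA examples were chosen after their values were seen. Alternatives covered the distance to gene ends, the q threshold, list length, summit spread and each library left out. The OXPHOS list is not reported here.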

Additional observations from a re-analysis of the deposited data

How the results depend on the processing

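Depth is unknown, nearest genes are a matter of position, and sequence was searched at listed starts only, so members without a start say nothing on elements. No paired analysis was possible because replicate numbers alone do not link a CTRL library to a C26 library. CTRL and C26 were compared by counts of ranks with no test. A region ranked higher or lower is so for every CTRL library set against every C26 library, by the rule itself. With peaks of −log10 q of at least 5, members numbered 413, with 103 ranked higher (24.9%) and 54 lower (13.1%). Over all shared regions of this setting the shares were 17.9% and 17.1%. Of the members without a start, 67 were higher (30.0%) and 24 lower (10.8%), and 44.8% of members were at a start. With lists trimmed to the shortest (4051 peaks) there were 329 members, 65 higher (19.8%) and 48 lower (14.6%). Of the members without a start, 30 were higher (20.8%) and 22 lower (15.3%). Over all shared regions of this setting 17.1% were higher and 16.7% lower, so the members' shares were closer to these than in the main setting. With these lists 55.7% of members were at a start and 65.2% of start windows held the core. Inside genes were 68.7%, and 22.5% were near a noncoding gene end. The share at a start was 43.6% with a gene-end distance of 500 bp and 33.6% with 2000 bp, where 59.6% were inside genes. With a start distance of 250 bp, added after seeing the data like all settings for the start, core and no-start results and the ranking by fold enrichment, 29.4% were at a start and 63.5% of windows held the core. Leaving out 1 library gave 710 to 1417 members, 255 to 542 higher (35.9% to 53.9%) and 157 to 438 lower (21.2% to 30.9%). Of the members without a start, 184 to 339 were higher (40.4% to 60.7%) and 80 to 249 lower (17.4% to 29.6%). Over all shared regions of these settings, 30.1% to 39.8% were higher and 29.9% to 39.9% lower. At a start were 34.8% to 39.0% of members, and 46.3% to 54.5% of start windows held the core. The percentile difference from gene-end regions ranged from −5.80 (trimmed lists) to −16.1 (without C26 replicate 1). The planned change of the summit window for the element search was not run.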
